A study of Mus musculus with 6 samples.

Results

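CDK inhibitors, D cyclins and Rb1 form the switch that holds a cell in G1 or lets it enter S phase, and their transcripts were measured in bone cells of mice given dexamethasone, a synthetic glucocorticoid. The genes were chosen by name: the CIP/KIP inhibitors Cdkn1a, Cdkn1b and Cdkn1c, the INK4 inhibitors Cdkn2a, Cdkn2b and Cdkn2c, the D cyclins Ccnd1, Ccnd2 and Ccnd3, and the retinoblastoma gene Rb1. Of these 10 genes, 7 were matched by Ensembl identifier among the 29616 genes of the count table, and all 7 had enough reads to be tested. Cdkn1c, Cdkn2a and Cdkn2b were not analysed here. The study sequenced polyadenylated RNA in 3 libraries from control C57BL/6 mice and in 3 libraries from C57BL/6 mice given dexamethasone. The dose was 0.08 µg/g each day for 4 weeks, and both groups were 8 weeks old at the start. The paper names saline as the control where it images bone, and calls the controls of its Osteocalcin-positive cells non-treated. No transgene or deletion is named for either group. The labels call the material bone cells, and the paper describes a sort of Osteocalcin-positive cells from bones freed of marrow. The sources used here do not say whether 1 mouse or several were used for each library.

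The members divide into brakes, accelerators and the gate they act on. D cyclins bind the kinases CDK4 and CDK6, and these complexes phosphorylate the retinoblastoma protein, which otherwise holds E2F transcription factors in check and keeps the genes of DNA replication silent. INK4 proteins bind CDK4 and CDK6 directly and keep D cyclins off, whereas CIP/KIP proteins bind cyclin and kinase together, block the later CDK2 complexes and can also help D cyclins to assemble with their kinases. In osteoblasts, the cells that form bone, exit from the cell cycle accompanies maturation, and p27, the product of Cdkn1b, and the retinoblastoma protein are known to take part in it.

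Transcript levels per library were measured as normalized counts, which are reads per gene divided by a size factor that evens out sequencing depth. The reads assigned to genes, as recovered from the normalized counts, were 72596611 to 89910728 per library. Differences are given as log2 fold changes of dexamethasone over control on the scale log2(normalized count + 1), where 1 is a doubling, and were tested with limma over 17442 genes with Benjamini-Hochberg adjustment. Genes with an adjusted p-value under 0.05 are said to have risen or fallen. The term differentially expressed is kept for those that also changed by at least 1 on the log2 scale, the limits that the study's methods set.

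The bases just before the transcription starts of the 3 inhibitor genes are shown first, because these genes had the largest fold changes among the members. Each window holds the 250 bases before a start listed by RefSeq on GRCm38.p6, read 5′ to 3′ on the strand of the gene. Capitals mark matches on either strand to the Sp1 box (GGGCGG), the CCAAT box (CCAAT) or the p53 consensus. The windows lie at chr17:29090729-29090978 and chr17:29093519-29093768 on the plus strand for Cdkn1a, at chr6:134920151-134920400 on the plus strand for Cdkn1b, and at chr4:109666757-109667006 on the minus strand for Cdkn2c.
Cdkn1a, start 1: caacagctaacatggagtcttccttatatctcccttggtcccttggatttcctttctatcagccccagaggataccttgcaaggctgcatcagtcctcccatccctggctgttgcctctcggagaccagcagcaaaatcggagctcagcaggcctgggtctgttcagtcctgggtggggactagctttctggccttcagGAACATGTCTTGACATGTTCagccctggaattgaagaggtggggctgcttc
Cdkn1a, start 2: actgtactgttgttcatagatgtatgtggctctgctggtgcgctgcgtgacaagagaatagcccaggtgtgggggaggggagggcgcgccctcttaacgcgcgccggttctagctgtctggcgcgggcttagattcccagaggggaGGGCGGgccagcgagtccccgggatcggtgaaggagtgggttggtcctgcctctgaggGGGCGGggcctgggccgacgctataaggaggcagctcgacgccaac
Cdkn1b: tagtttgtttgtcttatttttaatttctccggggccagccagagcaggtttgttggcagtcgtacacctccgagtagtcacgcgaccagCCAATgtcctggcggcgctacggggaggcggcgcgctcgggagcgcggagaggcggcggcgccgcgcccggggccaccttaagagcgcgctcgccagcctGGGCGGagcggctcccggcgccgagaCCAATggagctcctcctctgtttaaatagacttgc
Cdkn2c, start 1: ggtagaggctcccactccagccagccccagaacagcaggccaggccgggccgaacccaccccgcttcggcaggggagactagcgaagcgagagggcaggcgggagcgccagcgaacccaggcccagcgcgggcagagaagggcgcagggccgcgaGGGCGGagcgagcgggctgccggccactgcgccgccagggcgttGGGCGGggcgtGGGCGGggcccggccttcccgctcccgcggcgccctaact

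The first window of Cdkn1a holds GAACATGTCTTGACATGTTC, bases 51 to 32 before the start, a match with at most 1 mismatch to a pair of adjacent p53 half-sites. Such a match was found in 25 of 32851 RefSeq windows of the same length, or 0.0761%, and this motif was added to the search after the sequence had been seen. The second window of Cdkn1a holds 2 Sp1 boxes. The window of Cdkn1b holds 1 Sp1 box and 2 CCAAT boxes, and the first window of Cdkn2c holds 3 Sp1 boxes. These short motifs are common, since 32.7% of all windows hold GGGCGG and 33.8% hold CCAAT. The first window of Cdkn2c has a GC content of 77.2% and that of Cdkn1b 64.4%, against a median of 52.4% over all windows. A second start of Cdkn2c, at chr4:109665373-109665622 on the minus strand, has a GC content of 42.8% and holds none of the motifs searched. Of the other members, Ccnd3 had an entry with 2 starts, and both of its windows hold an Sp1 box. The first of these also holds GTAAACA, the core of a FOXO site, which 3.17% of all windows hold. The remaining forms searched, on both strands, were TTTCCCGC, TTTCGCGC, TTTGCCGC and TTTGGCGC for E2F (together in 1.86% of all windows), CACGTG for the E-box (6.02%), TTTGAA for the CHR element (16%) and the consensus of the glucocorticoid response element (0.387%). None of these occurred in the 7 windows of the 4 members with an entry, and none of the matches in those windows overlapped each other.

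All 7 members changed, 3 of them upward (Cdkn2c, Ccnd1 and Ccnd3) and 4 downward (Cdkn1a, Cdkn1b, Ccnd2 and Rb1). Change was the rule in these libraries: 72.5% of all tested genes had an adjusted p-value under 0.05, 37.2% with a higher and 35.2% with a lower level, so the count itself does not set the members apart. The 3 control values lay outside the range of the 3 dexamethasone values for 7 of 7 members, and for 74.7% of all tested genes. By the stricter cut-off, Cdkn2c was differentially expressed upward and Cdkn1b downward. Over all tested genes 22.3% were differentially expressed, 11.7% upward and 10.6% downward. The median log2 fold change of the 7 members was -0.15, against 0.001 over all tested genes.

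**Figure D1:**
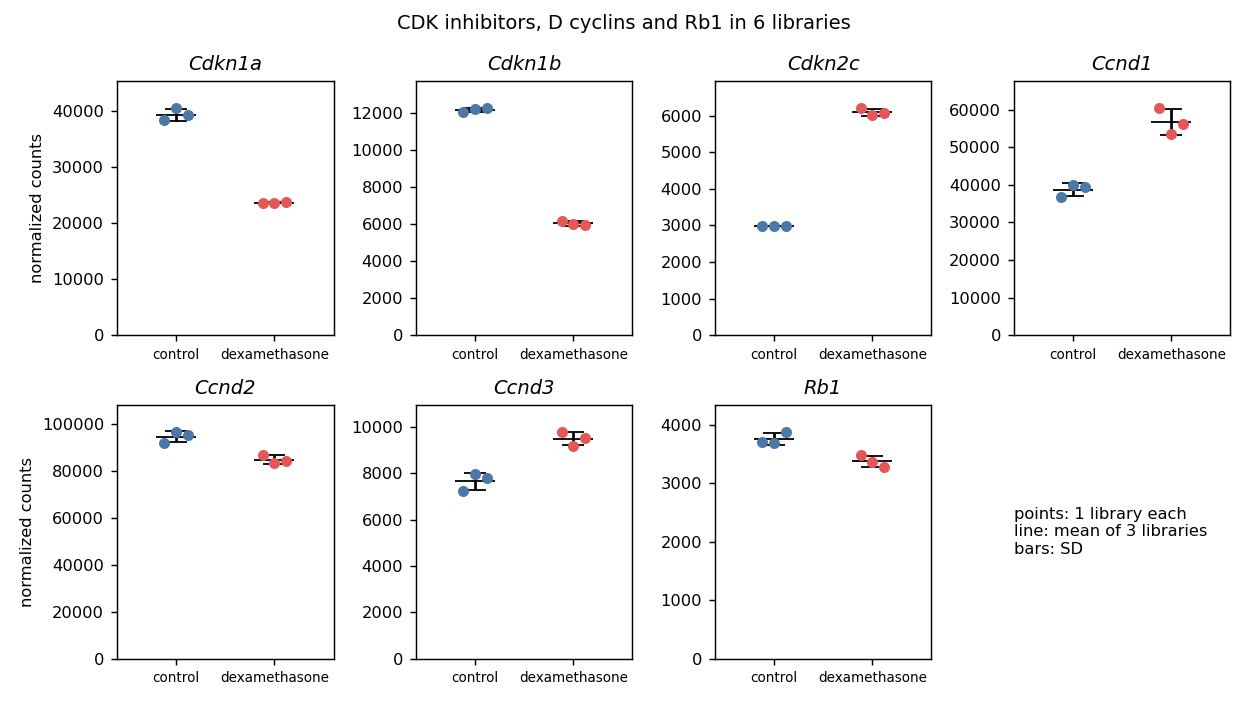
Normalized counts (vertical axis, linear from 0, 1 scale per gene) of the 7 members in 3 control and 3 dexamethasone libraries; each point is 1 library, the line is the mean and the bars are the SD. The 2 groups are apart for every gene, with Cdkn1a, Cdkn1b, Ccnd2 and Rb1 lower and Cdkn2c, Ccnd1 and Ccnd3 higher in the dexamethasone libraries.

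Both CIP/KIP inhibitors with data fell. Cdkn1b (ENSMUSG00000003031), which encodes p27, had 12058, 12203 and 12269 normalized counts in the control libraries and 6184, 6013 and 5949 in those from dexamethasone-treated mice, in the order of replicates 1, 2 and 3 used throughout. The highest dexamethasone library was thus far below the lowest control library, and the spread within each group was small. The mean went from 12177 ± 108 to 6049 ± 122 normalized counts (both SD, n = 3), 0.497 times the control level. Its log2 fold change was -1.01 (standard error 0.0343, 95% confidence interval -1.08 to -0.94, limma adjusted p = 1.15e-18), at the edge of the cut-off. Of the tested genes, 10.6% had a lower log2 fold change. Without dexamethasone replicate 3, whose Cdkn1b value was the lowest, the fold change was -0.998 and just missed the cut-off of 1, while the adjusted p-value was 1.49e-17.

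Cdkn1a (ENSMUSG00000023067) encodes p21, the inhibitor that p53 induces after DNA damage. It had 38309, 40492 and 39253 normalized counts in the control libraries and 23641, 23517 and 23759 in the dexamethasone libraries. The dexamethasone libraries were almost identical to each other, and all lay below the controls. The mean went from 39351 ± 1095 to 23639 ± 121 (both SD, n = 3), which is 0.601 times the control level. The log2 fold change was -0.73 (standard error 0.0357, 95% confidence interval -0.81 to -0.66, limma adjusted p = 1.87e-15), short of the cut-off for differential expression, and 15.7% of the tested genes had a lower one. In the GENCODE M21 annotation 7.68% of the exon bases of Cdkn1a are overlapped by AC167363.2 on the opposite strand. That gene averaged 296.6 normalized counts in the control libraries, so it is small beside Cdkn1a. No other gene overlaps the exons of Cdkn1b or Cdkn2c.

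The INK4 inhibitor with data went the other way. Cdkn2c (ENSMUSG00000028551), which encodes p18, had 2986, 2989 and 2996 normalized counts in the control libraries and 6204, 6019 and 6066 in the dexamethasone libraries. Each dexamethasone value was about as far above the controls as the controls were above 0. The mean rose from 2990 ± 5.14 to 6097 ± 96.1 (both SD, n = 3), 2.04 times the control level. Its log2 fold change was 1.03 (standard error 0.0364, 95% confidence interval 0.95 to 1.10, limma adjusted p = 2.66e-18), and 88.7% of the tested genes had a lower one. With every library rescaled to an equal total (below, the same total) the fold change was 0.91, and after quantile normalization it was 0.85, both under the cut-off of 1 with adjusted p-values of 2.33e-15 and 2.04e-15. Cdkn2d, the INK4 gene for p19, is no member but belongs to the list of other inhibitors. It had 913.5, 987.3 and 982.5 normalized counts in the control libraries and 2088, 2135 and 2171 in the dexamethasone libraries, and its log2 fold change was 1.15 (limma adjusted p = 1.47e-16). Both INK4 genes with data were therefore higher with dexamethasone, opposite to both CIP/KIP genes with data.

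**Figure D2:**
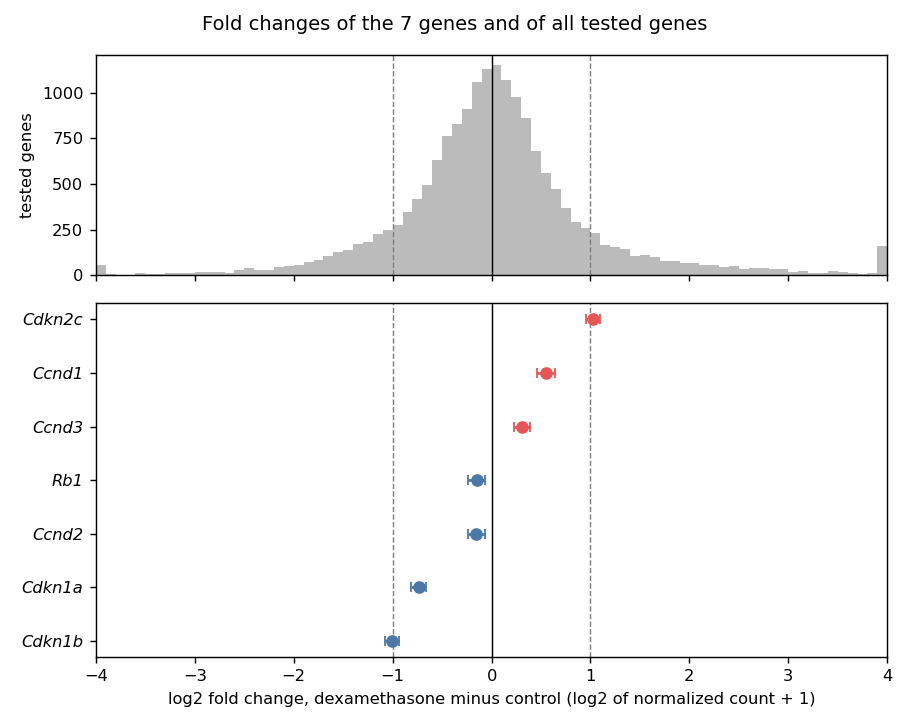
Log2 fold changes of dexamethasone over control (horizontal axis); the upper panel counts all 17442 tested genes in bins, with values beyond 4 in either direction placed in the outermost bins, and the lower panel gives the 7 members with 95% confidence intervals. Dashed lines mark the cut-off of 1; Cdkn1b at -1.01 and Cdkn2c at 1.03 lie on it, and the other 5 members lie between.

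The D cyclins did not move together. Ccnd1 (ENSMUSG00000070348), the D cyclin best known as a target of mitogen signals, had 36712, 39940 and 39567 normalized counts in the control libraries and 60430, 53641 and 56356 in the dexamethasone libraries. The groups did not overlap, although the dexamethasone libraries were more spread out here than for any other member. The mean rose from 38740 ± 1766 to 56809 ± 3417 (both SD, n = 3), 1.47 times the control level, with a log2 fold change of 0.55 (standard error 0.0445, 95% confidence interval 0.46 to 0.64, limma adjusted p = 4.56e-11). LTO1, which overlaps 23.36% of the exon bases of Ccnd1 on the opposite strand, averaged 1735 normalized counts in the control and 1587 in the dexamethasone libraries, and so did not move with it. The strand setting of the count is not given in the sources used here, and reads of such overlapping genes cannot be told apart without it.

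Ccnd2 (ENSMUSG00000000184) had the most reads of all members. It had 92101, 96796 and 95448 normalized counts in the control libraries and 86969, 83677 and 84447 in the dexamethasone libraries. The gap between the groups was narrow, with the highest dexamethasone library close below the lowest control library. The mean went from 94781 ± 2417 to 85031 ± 1722 (both SD, n = 3), 0.897 times the control level, for a log2 fold change of -0.16 (95% confidence interval -0.24 to -0.07, limma adjusted p = 0.00162). At the same total the fold change was -0.27, in an alternative that shifted the median of all tested genes to -0.11.

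Ccnd3 (ENSMUSG00000034165), the D cyclin with the fewest reads, had 7233, 7941 and 7779 normalized counts in the control libraries and 9771, 9187 and 9502 in the dexamethasone libraries. All dexamethasone libraries were above all control libraries. The mean rose from 7651 ± 371 to 9487 ± 292 (both SD, n = 3), 1.24 times the control level, for a log2 fold change of 0.31 (95% confidence interval 0.23 to 0.39, limma adjusted p = 1.22e-07). The size of this change depended on the scaling: it was 0.20 at the same total and 0.11 after quantile normalization (limma adjusted p = 0.00235). Bysl, on the opposite strand over 4.11% of the exon bases of Ccnd3, had a log2 fold change of 0.30, close to that of Ccnd3, from a mean of 3261 to 4009 normalized counts.

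Rb1 (ENSMUSG00000022105), which encodes the retinoblastoma protein itself, had 3702, 3691 and 3877 normalized counts in the control libraries and 3478, 3367 and 3281 in the dexamethasone libraries. Its groups were apart by little more than the spread within them. The mean went from 3757 ± 105 to 3375 ± 98.5 (both SD, n = 3), for a log2 fold change of -0.15 (95% confidence interval -0.24 to -0.07, limma adjusted p = 0.00124). It was -0.27 at the same total and -0.31 after quantile normalization. Lpar6 and Rcbtb2, which overlap 14.9% of the exon bases of Rb1 on the opposite strand, had log2 fold changes of -0.52 and -0.21. Lpar6 averaged 248 normalized counts and Rcbtb2 2262 in the control libraries. The fold change of Rb1 was close to that of Ccnd2, and both were small beside those of the inhibitors.

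Levels of different genes were compared per kilobase of exon, which removes the effect of transcript length on the read count. In the control libraries Cdkn1a was the most abundant member, at 11076 ± 308 (SD, n = 3) normalized counts per kilobase. Ccnd2 followed with 10073 ± 257 (SD, n = 3) and Ccnd1 with 8227 ± 375 (SD, n = 3). The ranges of these 3 genes did not overlap, and Cdkn1b came well below them with 2675 ± 23.8 (SD, n = 3). Cdkn2c (1113 ± 1.91), Ccnd3 (871.9 ± 42.2) and Rb1 (624.5 ± 17.4; all SD, n = 3) were the least abundant members, again without overlap. Rb1 could not be placed above or below Cdkn2d, at 610.6 ± 26.2 (SD, n = 3), because their ranges overlapped.

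In the dexamethasone libraries the order was different at the top. Ccnd1 came first with 12064 ± 726 (SD, n = 3) normalized counts per kilobase, then Ccnd2 with 9037 ± 183 (SD, n = 3), and after them Cdkn1a with 6653 ± 34 (SD, n = 3). Cdkn2c, at 2270 ± 35.8 (SD, n = 3), was above Cdkn1b, at 1329 ± 26.7 (SD, n = 3). Cdkn1b overlapped in range with Cdkn2d, at 1354 ± 26.4 (SD, n = 3). Ccnd3 at 1081 ± 33.3 and Rb1 at 561.2 ± 16.4 (both SD, n = 3) came last. With the length of the longest transcript in place of all exons, the top 3 genes kept these orders in both groups, but Ccnd3 moved above Cdkn2c in the control libraries (1983 against 1210) and overlapped it in the dexamethasone libraries (2459 against 2467), where Cdkn1b was next to last.

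Within the D cyclins the leading gene per kilobase changed. Without division by length Ccnd2 led Ccnd1 in both groups, with means of 94781 against 38740 normalized counts in the control and 85031 against 56809 in the dexamethasone libraries. Ccnd2 made up 52.6% ± 0.537 (SD, n = 3) of the summed D cyclin level per kilobase in the control libraries and 40.8% ± 0.916 (SD, n = 3) in the dexamethasone libraries. Ccnd1 made up 42.3%, 43.1% and 43.2% of it in the control libraries and 55.3%, 53.4% and 54.3% in the dexamethasone libraries, a mean difference of 11.5 percentage points. Ccnd3 had a share of 4.55% ± 0.0623 (SD, n = 3) and 4.88% ± 0.0639 (SD, n = 3). The groups did not overlap for any of the 3 shares, and the exact two-sided permutation test gave p = 0.1 for each, the smallest value that 3 against 3 libraries allow. The sum itself was 19172 ± 672 (SD, n = 3) and 22182 ± 939 (SD, n = 3) normalized counts per kilobase, 1.16 times the control level, or 1.07 times at the same total.

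**Figure D3:**
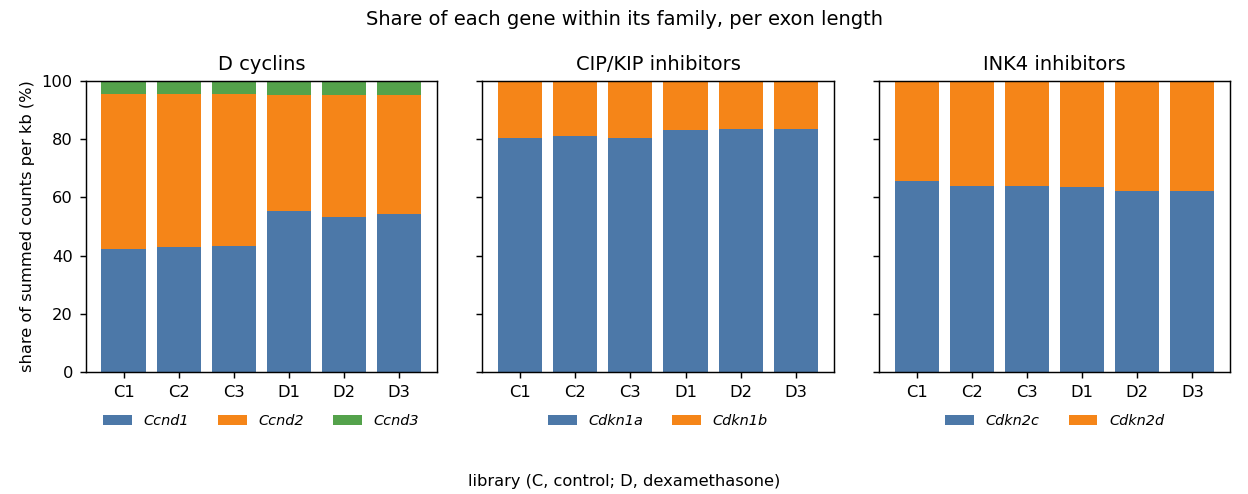
Share (%, vertical axis from 0 to 100) of each gene in the summed normalized counts per kilobase of exon of the genes of its family with data, in each of 3 control (C1 to C3) and 3 dexamethasone (D1 to D3) libraries. Cdkn1c, Cdkn2a and Cdkn2b were not analysed. Ccnd2 has the largest D cyclin share in every control library and Ccnd1 in every dexamethasone library, while the shares within the inhibitor families differ by a few percentage points.

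Within the inhibitor families the shares differed by a few percentage points. Cdkn1a made up 80.5% ± 0.365 (SD, n = 3) of the 2 CIP/KIP genes in the control and 83.4% ± 0.304 (SD, n = 3) in the dexamethasone libraries, and Cdkn1b the rest. Cdkn2c made up 64.6% ± 0.963 (SD, n = 3) of Cdkn2c and Cdkn2d together in the control and 62.6% ± 0.775 (SD, n = 3) in the dexamethasone libraries. The exact two-sided permutation p was again 0.1 for each share. The summed level of the 2 CIP/KIP genes per kilobase was 13751 ± 323 (SD, n = 3) in the control and 7982 ± 37.7 (SD, n = 3) in the dexamethasone libraries, 0.58 times as high. For the 2 INK4 genes it was 1724 ± 27.7 (SD, n = 3) and 3624 ± 22.8 (SD, n = 3), 2.1 times as high. Per unit of D cyclin, a ratio chosen after the values were seen and free of the scaling between libraries, the summed level of Cdkn1a and Cdkn1b was 0.73, 0.716 and 0.707 in the control libraries and 0.346, 0.372 and 0.363 in the dexamethasone libraries. In bulk RNA, a smaller share of cells that express a gene and less RNA per cell cannot be told apart.

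The genes around the members were followed in 7 lists, each summarized by its counts. For each list the shares to compare are those over all tested genes. Of these, 37.2% rose and 35.2% fell, 11.7% were differentially expressed upward and 10.6% downward, and the median log2 fold change was 0.001. Among the cell cycle kinases and later cyclins, 10 of 12 tested genes rose and 2 fell, with 7 differentially expressed upward and a median log2 fold change of 1.59. The partners of the D cyclins changed little: Cdk4 had a log2 fold change of 0.24 (with limma, adjusted p = 1.12e-06) and Cdk6 of 0.16 (limma adjusted p = 0.000336). Neither held after quantile normalization, where Cdk4 was at 0.023 (limma adjusted p = 0.447) and Cdk6 at -0.061, and Cdk6 was at 0.046 (limma adjusted p = 0.257) at the same total. The cyclins that act after the D cyclins rose far more than any member. Ccne2, a cyclin E gene whose product works with CDK2 at the entry into S phase, rose from 1200 ± 95 to 10552 ± 261 normalized counts (both SD, n = 3), for a log2 fold change of 3.14. Ccna2, which encodes cyclin A, rose by 2.61 and Cdk1, the mitotic kinase gene, by 2.38 on the log2 scale. Cdk7, part of the kinase that activates other CDKs, fell by 0.54.

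The relatives of Rb1 went apart. Rbl1, which encodes p107, rose from 3035 ± 119 to 14466 ± 323 normalized counts (both SD, n = 3), for a log2 fold change of 2.25 (with limma, adjusted p = 5.12e-25). Rbl2, which encodes p130, the pocket protein of resting cells, had a log2 fold change of -0.12 (with limma, adjusted p = 0.0155), and the call was lost without control replicate 3 (-0.10, limma adjusted p = 0.0702), without dexamethasone replicate 2 (-0.079, adjusted p = 0.104) and in limma without the mean-variance trend (adjusted p = 0.0836). Of the 16 tested pocket protein, E2F and MuvB genes, 13 rose and 1 fell, with 9 differentially expressed upward. E2f1, an activator of S phase genes, had a log2 fold change of 1.66 and its partner Tfdp1 one of 1.25. E2f8, a repressor E2F gene, had the largest in the list with 4.01, from 392.2 ± 21.2 to 6334 ± 213 normalized counts (both SD, n = 3). Rbbp4, which encodes a histone-binding protein of the MuvB complex, had one of 0.79.

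All 15 genes analysed as E2F targets rose and were differentially expressed, with log2 fold changes of 1.96 to 3.17 and a median of 2.65. The lowest was that of Rrm1, a subunit gene of the enzyme that makes deoxyribonucleotides, and the highest that of Cdc6, which encodes a loader of the replicative helicase and went from 646.2 ± 47.9 to 5798 ± 229 normalized counts (both SD, n = 3). Mcm2, Mcm4 and Mcm6, subunits of the replicative helicase, had log2 fold changes of 2.43, 2.62 and 2.66. The largest change among the 7 members in either direction was thus smaller than the smallest among these genes. This list was drawn up with results of the same libraries known, so its count is no independent evidence.

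**Figure D4:**
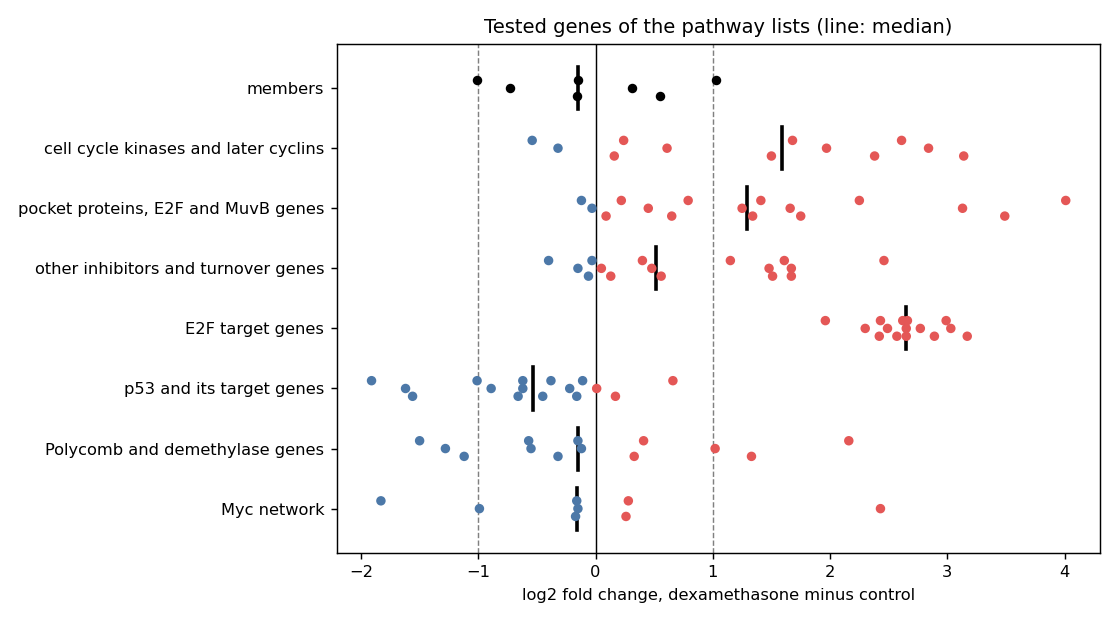
Log2 fold changes of dexamethasone over control (horizontal axis) for the members and for the tested genes of 7 pathway lists; each point is 1 gene, the thick line is the list's median and dashed lines mark the cut-off of 1. The members lie between -1.01 and 1.03, the E2F target genes between 1.96 and 3.17, and most p53 targets below 0.

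Genes for the turnover of inhibitors and cyclins were mostly higher as well, with 11 of 16 higher, 2 lower and a median of 0.52. Over all tested genes 37.2% were higher and 35.2% lower. Dtl, which encodes the substrate receptor that marks p21 for destruction in S phase, rose from 2379 ± 179 to 13098 ± 47.4 normalized counts (both SD, n = 3), for a log2 fold change of 2.46. Cul1, the scaffold of the ligase that removes p27, had a log2 fold change of 0.48, and its adaptor Skp1a did not pass the test (-0.06, limma adjusted p = 0.126), although it passed in 6 of the alternatives. The receptor of this ligase for p27, Skp2, and its cofactor Cks1b, named after their values were seen, had log2 fold changes of 1.61 and 1.67. Fbxw7, the receptor for cyclin E, fell by 0.40, and Ambra1, the receptor for D cyclins, fell by 0.15.

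Cdkn1a is a p53 target, and so its fold change was set beside those in a list of p53 and other p53 targets, which does not include Cdkn1a. Of 16 tested genes 13 fell and 2 rose, with 4 differentially expressed downward and a median log2 fold change of -0.53. Trp53 itself rose by 0.66, from 7157 ± 53.8 to 11274 ± 23.2 normalized counts (both SD, n = 3; limma adjusted p = 5.29e-15). Among the targets Bbc3, which encodes the cell death protein PUMA, fell by 1.91 and Trp53inp1 by 1.56 on the log2 scale. Ccng1, which encodes cyclin G1, had a log2 fold change of -0.62 and Zmat3 one of -0.16. The change of Cdkn1a, -0.73, was within this range. Mdm2, the p53 ligase gene, had a log2 fold change of 0.17, which did not pass at the same total (0.058, limma adjusted p = 0.107) or after quantile normalization (0.039, limma adjusted p = 0.289).

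The lists of upstream regulators were mixed in direction, as were all tested genes, of which 37.2% rose, 35.2% fell and 22.3% were differentially expressed. Of 13 Polycomb and demethylase genes, the chromatin regulators of the Cdkn2a locus, 5 rose and 8 fell with a median of -0.15. In this list 3 genes were differentially expressed upward and 3 downward, a larger share than over all tested genes. At the same total 2 were so upward and 3 downward. Ezh2, which encodes the Polycomb methyltransferase, rose by 2.16 and its partner Suz12 by 1.02, while Bmi1 fell by 0.32 and Cbx8 fell from 1956 ± 87.9 to 690.6 ± 28.9 normalized counts (both SD, n = 3). Rnf2 fell by 0.12 (limma adjusted p = 0.008) and lost the call without control replicate 2 (limma adjusted p = 0.0578) and in limma without the mean-variance trend (adjusted p = 0.0642). In the Myc network, whose factors act on Ccnd2 and Cdkn1a among others, 3 of 8 tested genes rose and 5 fell with a median of -0.15. The differentially expressed ones were 1 up and 1 down. They were 1 up and 2 down at the same total, with TMM, after quantile normalization and with edgeR. The same held without control replicate 2 and without dexamethasone replicate 2. Myc, Max and Mnt had log2 fold changes of -0.16, -0.15 and -0.17. The Mxd genes, which encode rivals of Myc for Max, parted: Mxd3 rose by 2.43 and Mxd4 fell by 1.83.

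Markers of several cell types moved with the treatment, and their part in the changes of the members was not tested. Of 10 osteoblast markers 9 fell and 1 rose (Spp1), and their summed normalized count was 2280860 to 2419168 in the control and 2112299 to 2251880 in the dexamethasone libraries, with a log2 fold change of -1.05 for Col1a2. Spp1 alone went from 33595 ± 988 to 1279674 ± 29571 normalized counts (both SD, n = 3), more than any other marker in the dexamethasone sum, so the sums hide the fall of the other 9. Bglap, the Osteocalcin gene on whose product the sort relied, had 98.23 to 122.1 normalized counts in the control and 9.539 to 15.12 in the dexamethasone libraries. Its near-identical copy Bglap2 had 299.7 to 338.8 and 29.57 to 33.72. Both counts are low for defining markers, but the paper does not say how reads that match both copies were counted. The 5 smooth muscle and pericyte markers summed to 141436 to 149020 and to 12668 to 13699, with 2 lower and 1 higher. Nearly all of this sum was Acta2, which fell from 144918 ± 3876 to 12449 ± 493 normalized counts (both SD, n = 3), while the other 4 had means of at most 660 in either group. Among 8 blood cell markers 3 rose and 2 fell (sums of 6705 to 6963 and of 8111 to 8605), with Ptprc at 1.758 to 5.814 normalized counts in all libraries and Vav1 at 3 reads or fewer. Arhgdib made up most of these sums. Within them the means of the risen Itgb2 were 54.61 ± 10.2 and 503.5 ± 26.2 and those of the risen Cd53 15.66 ± 3.99 and 283 ± 24.8 normalized counts (all SD, n = 3). The fallen Laptm5 had means of 19.23 ± 4.53 and 6.41 ± 2.95 and the fallen Coro1a 20.44 ± 3.59 and 6.792 ± 4.95 normalized counts (all SD, n = 3). For 3 osteocyte markers the sums were 228.6 to 254.4 and 5613 to 6276 with 2 higher. Nearly all of the rise was Dmp1, with means of 38.5 ± 2.66 and 5639 ± 326 normalized counts (both SD, n = 3). The means of the risen Phex were 184.6 and 278.3, and Mepe, at 18.47 and 10.03, was lower but not called. For 7 endothelial markers the sums were 2171 to 2298 and 3267 to 3877 with 3 higher. Vwf made up most of these sums, at 1825 ± 81.8 in the control and 3097 ± 290 in the dexamethasone libraries (both SD, n = 3). The means of the risen Kdr were 348.1 and 413.8 normalized counts and those of the risen Pecam1 15.68 and 26.28. Tek, at 12.62 and 8.112, and Egfl7, at 13.63 and 14.77, were not called, and Cdh5 and Tie1 were at 3 reads or fewer. Chondrocyte markers summed to 5829 to 6296 and 22066 to 24912 with 2 of 2 tested genes higher. These were Sox9 and Col2a1, which made up nearly all of the sums. The others were too low to be tested: Acan had 0 to 6.54 normalized counts and Col9a1 3 reads or fewer. Matn3 had means of 9.877 ± 2.27 in the control and 1.889 ± 1.76 in the dexamethasone libraries (both SD, n = 3). Red cell markers (30.33 to 36.91 and 20.99 to 49.05) and adipocyte markers (5.871 to 9.181 and 2.18 to 4.769) were low in all libraries, with 1 and 0 genes tested and 0 called.

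**Figure D5:**
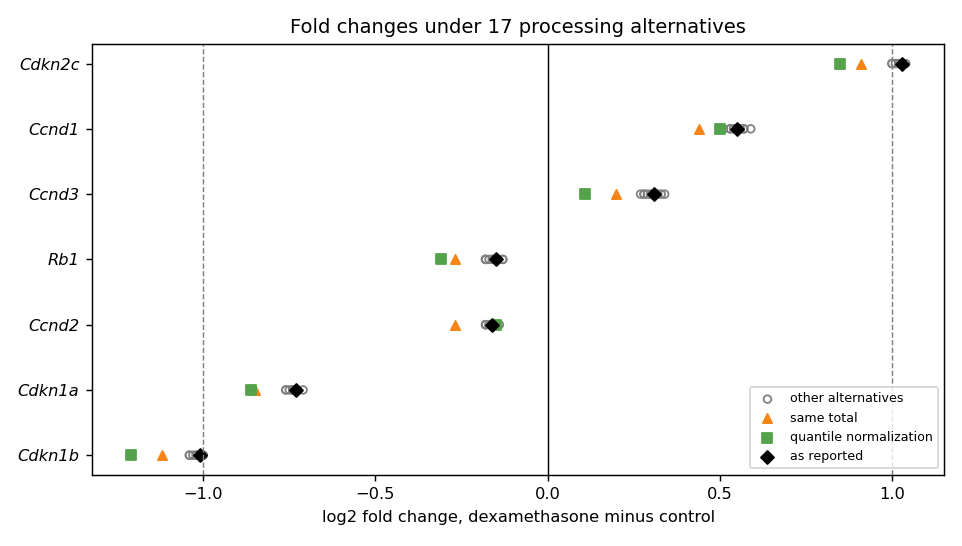
Log2 fold changes of dexamethasone over control (horizontal axis) of the 7 members as reported (black diamonds), with every library rescaled to the same total (triangles), after quantile normalization (squares) and under 15 other alternatives (open circles). No member crosses 0, and Cdkn2c and Cdkn1b lie near the cut-off of 1, marked by dashed lines.

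Across 17 alternatives in filter, scaling, test and libraries, every member kept its direction and an adjusted p-value under 0.05. The fold change ranged from -1.21 to -0.998 for Cdkn1b, from -0.86 to -0.71 for Cdkn1a, from 0.85 to 1.04 for Cdkn2c and from 0.44 to 0.59 for Ccnd1. It ranged from 0.11 to 0.34 for Ccnd3, from -0.27 to -0.14 for Ccnd2 and from -0.31 to -0.13 for Rb1.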

How the data were processed

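RNA from 3 control and 3 dexamethasone samples was sequenced after KAPA Stranded mRNA-Seq library construction. The authors aligned and counted reads per gene with STAR 2.7.10a and deposited the counts divided by DESeq2 1.36.0 size factors, a signal per gene on genome build GRCm39 per the labels; annotation release and strand setting are not given in the sources used here. Divided by the smallest value above 0 of its library, taken as 1 read, every deposited value gave a whole number of reads (100.0%, tolerance 0.001). Genes averaging 10 or more normalized counts were tested on log2(value + 1) with limma 3.58.1 (trend) in R 4.3.3, all 6 libraries, no covariates, Benjamini-Hochberg adjustment. The recovered reads were also tested with edgeR 4.0.16 and with DESeq2 1.42.0 as alternatives. The test script was checked on simulated data. Symbols (28087 of 29616 genes), exon lengths and overlaps came from GENCODE M21 (GRCm38), promoter windows from RefSeq (entries for 4 of 7 members). Libraries within a group differed by more than counting noise (chi-square per degree of freedom 3.52 to 29.6). As nothing states separate animals, p-values measure only the spread between these samples. The members and lists were chosen with earlier results of these data known. One gene of the E2F target list is not reported here. Named genes were the members, Cdkn2d, the 4 most abundant and the 2 extreme tested genes of each pathway list, and the most abundant gene of each marker list. Others were named after their values were seen: Ccnb2, Skp2, Cks1b, Spp1, Bglap, Bglap2, Ptprc, Cd53, Itgb2, Laptm5, Coro1a, Phex, Mepe, Col2a1, Acan, Matn3, Pecam1, Kdr, Tek, Egfl7 and the markers at 3 reads or fewer.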

Additional observations from a re-analysis of the deposited data

How the results depend on the processing

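The 7 members kept their direction and their adjusted p-value under 0.05 in all 17 alternatives, with the largest adjusted p-value at 0.031 (Ccnd2, replicate block). Of the 2 differentially expressed members, 1 was left at the same total and 1 after quantile normalization, where Cdkn2c was at 0.91 and 0.85, and 1 to 2 when a library was left out, since Cdkn1b missed the cut-off of 1 without dexamethasone replicate 3. With the replicate number as a block, 2 members were differentially expressed; the numbers did not pair the samples (correlations of deviations from -0.105 to -0.02), and a block changed no call of a member. Over all genes 3894 were differentially expressed and 2170 at a mean of at least 100, where fewer genes were tested. With no division by length, the difference in share was 10.1 percentage points for Ccnd1, 0.852 for Ccnd3 and 3.26 for Cdkn1a, and with the longest transcript 0.655 for Ccnd3 and 1.92 for Cdkn1a. Of 900 values for 53 named genes, 878 kept direction and call, 10 lost the call, 6 gained it and 6 changed direction. The last were Cdk6 (-0.061) and the blood cell marker Arhgdib (-0.057) after quantile normalization, and Alas2, a red cell marker that was never called, at 0.038 after quantile normalization, 0.02 with DESeq2, and between -0.50 and 0.25 with each library omitted in turn (0.01 without control replicate 1, 0.25 without dexamethasone replicate 1); the cause was not tested. Rescaling to the same total put the median of all genes at -0.11, quantile normalization at -0.07 and TMM at -0.025. The limit of 3 reads for a marker covers counting error only, and an exact test of 3 against 3 libraries cannot go below 0.1.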
